A study of Mus musculus with 2 samples.

Results

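Uterine mesothelial cells were 133 of the 8603 cells in 2 single-cell RNA-seq libraries of mouse uterus, 54 of 3653 in control and 79 of 4950 in the conditional knockout (cKO). Barcodes counted as cells had 500 or more genes with a UMI (a unique molecular identifier, standing for 1 captured transcript) and no more than 20% of UMIs from mitochondrial genes. Mesothelial cells were chosen by measured values: a cell was taken when at least 2 of 5 markers were detected (Msln, Upk3b, Lrrn4, Upk1b and Wt1), Msln and Upk3b together had at least 2 UMIs, and Ptprc, the pan-leukocyte gene, had none. These 6 genes selected the cells, so their values are described with no test.

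The mesothelium is the single layer of flat cells that covers the organs of the body cavities, and on the uterus it forms the outer serosal surface. It arises from mesoderm, carries keratins and a glycocalyx like an epithelium, and also makes decorin and other products of connective tissue cells. Mesothelial cells secrete a lubricating fluid, shape local clotting and inflammation, and can take on a mesenchymal form after injury.

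The study compared whole uteri of female mice aged 6 months. Control mice were Prickle1 f/f, with floxed alleles of the planar cell polarity gene Prickle1, and cKO mice carried the same floxed alleles and an iCre driven by Ltf, the lactoferrin gene, which is transcribed in uterine epithelium. Each group was a pool of 3 mice and 1 library, so genotype, animals, dissociation and library cannot be told apart, and no difference between the groups has a replicate check. The genotype entry of both samples reads wild-type on C57BL/6J, which differs from their titles, and the groups used here follow the titles.

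The mesothelial cells held 775357 UMIs in control and 1978232 in cKO, of 45035801 and 57145553 in the libraries. Their median depth was 7663 UMIs (range 908 to 71086) and 2497.5 genes in control, and 13869 UMIs (999 to 156612) and 4170 genes in cKO. No mesothelial barcode occurred in both libraries, against 5 of all cell barcodes. None of the control cells and 1 of the cKO cells lay above the doublet score limit of 0.25, and the deepest single cell held 9.17% and 7.92% of the mesothelial UMIs.

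The 5 markers encode mesothelin, a surface protein of mesothelium (Msln), the uroplakins of urothelial and mesothelial membranes (Upk3b, Upk1b), a leucine-rich repeat membrane protein (Lrrn4) and the zinc-finger factor of urogenital mesenchyme and mesothelium (Wt1). Levels are in CPM, a gene's UMIs as a share of all UMIs of the class, scaled to 1000000. Upk3b had 368 CPM in control (95% Poisson interval 326 to 413) and 600.0 in cKO (566 to 635), in 49 of 54 and 77 of 79 cells. Msln had 325 and 306 CPM, in 43 and 71 cells, Wt1 had 267 and 278 CPM, Lrrn4 157 and 241 CPM, and Upk1b 149.6 and 155 CPM. Stromal fibroblasts also carried Wt1, at 79.96 and 92.9 CPM, and Upk3b with 5 and 1 UMIs, whereas Msln, Lrrn4 and Upk1b had 0 UMIs there in both libraries, which allows up to 0.359 and 0.121 CPM. Leukocytes served as the background for free RNA in droplets. A Upk3b UMI was found in 1.55% of control and 0.789% of cKO leukocytes, at median depths of 6629 and 5655.5 UMIs. After thinning to 1000 UMIs a cell, Upk3b was found in 17 of 53 control and 44 of 78 cKO mesothelial cells (1 shallower cell was left out of each group) and in 0 of 766 and 2 of 1756 leukocytes. The rule chose mesothelial cells by these genes, and stromal fibroblasts leave out every cell it took. These contrasts therefore follow partly from the selection.

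All 5 markers were detected in 24 control and 50 cKO cells, 4 in 13 and 16, 3 in 10 and 8, and 2 in 7 and 5. The threshold lay inside a continuum of low counts. Exactly 2 UMIs of Msln and Upk3b together were found in 14 control and 6 cKO members, and 15 and 16 cells just outside had 1 such UMI with at least 2 markers. A further 4 and 10 cells had enough Msln and Upk3b UMIs but only 1 marker, and 3 and 6 met all but the Ptprc condition. The median over members was 5.5 UMIs of both genes in control (highest 67) and 15 in cKO (highest 136), beside the median depths of 7663 and 13869 UMIs. The plot of marker UMIs against depth shows both for each cell.

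**Figure D1:**
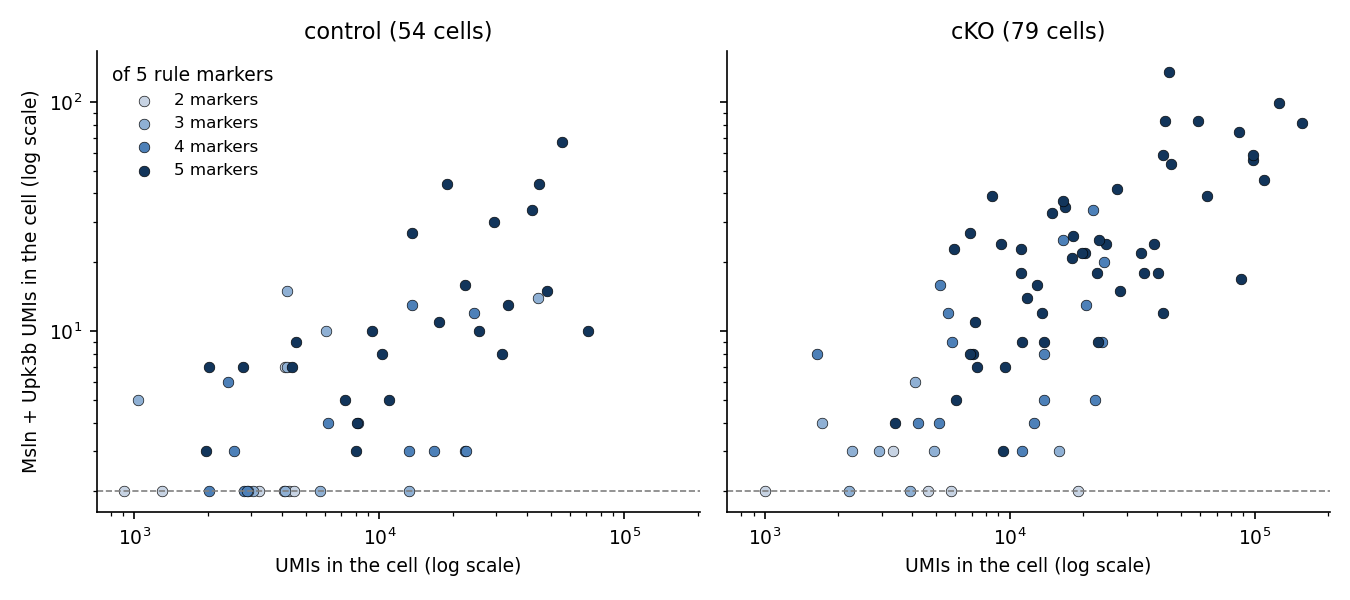
Msln and Upk3b UMIs of each mesothelial cell (vertical, log scale) against its total UMIs (horizontal, log scale) in control (54 cells) and cKO (79 cells), shaded by how many of the 5 rule markers were detected. The dashed line is the rule's minimum of 2 UMIs; deeper cells carry more marker UMIs, and the 9 cells above 50000 UMIs in cKO, against 2 in control, lie at the right, with 10 to 99 marker UMIs.

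The promoters of 5 rule markers and of the 15 leading genes described below were read from RefSeq (GRCm38.p6) to show what sequence stands before them. Of these 20 genes, 14 were matched, with 20 start sites. Both strands of the 250 bases before each start were searched for GGAATG, the core bound by TEAD factors, and GNGTGGGNG, a form bound by WT1 and EGR proteins. GGAATG occurred in 6 of the 20 windows (Gpm6a, Lrrn4, Upk3b, Xpnpep2 and 2 starts of Sox6), against 12.6% of all 32851 promoter windows. GNGTGGGNG occurred in 3 (Lrrn4, Sox6 and Xpnpep2), against 12.7%. A match is a description of letters and not a bound site. The windows of 4 genes with a match are shown from base 250 to base 51 before the start, 5′ to 3′, with matched letters of either motif in capitals. Overlapping matches in Xpnpep2 run together.
Upk3b, chr5:136038246-136038445, plus strand: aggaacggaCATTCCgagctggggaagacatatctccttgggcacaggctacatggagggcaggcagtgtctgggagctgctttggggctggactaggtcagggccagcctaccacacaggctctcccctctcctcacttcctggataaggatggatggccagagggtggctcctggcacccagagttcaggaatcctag
Lrrn4, chr2:132880913-132881112, minus strand: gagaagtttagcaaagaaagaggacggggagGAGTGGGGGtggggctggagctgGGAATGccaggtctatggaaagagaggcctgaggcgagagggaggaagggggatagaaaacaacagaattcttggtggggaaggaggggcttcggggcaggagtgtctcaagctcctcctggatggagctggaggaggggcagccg
Gpm6a, chr8:54779184-54779383, plus strand: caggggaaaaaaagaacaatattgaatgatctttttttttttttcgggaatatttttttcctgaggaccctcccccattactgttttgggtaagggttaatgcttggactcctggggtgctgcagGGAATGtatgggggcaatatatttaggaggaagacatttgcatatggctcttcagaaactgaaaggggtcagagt
Xpnpep2, chrX:48108475-48108674, plus strand: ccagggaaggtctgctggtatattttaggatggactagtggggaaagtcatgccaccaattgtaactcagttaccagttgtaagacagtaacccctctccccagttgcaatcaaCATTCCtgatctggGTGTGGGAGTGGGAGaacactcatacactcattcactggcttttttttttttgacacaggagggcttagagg
The Upk3b match lies on the minus strand of its promoter, 241 to 236 bases before the start, and the Lrrn4 window holds both motifs, GNGTGGGNG at 219 to 211 and GGAATG at 196 to 191. Gpm6a has 2 annotated starts, and only the one shown, which lies upstream of the GENCODE gene start given below, holds a match, at 125 to 120.

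The share of mesothelial cells among all cells was 1.48% in control (exact binomial 95% interval 1.11 to 1.92) and 1.60% in cKO (1.27 to 1.99), and the log2 ratio was 0.11 (-0.41 to 0.64). The control suspension held 708 epithelial cells and the cKO suspension 47, which moves every other share. Among cells other than epithelial cells the mesothelial share was 1.83% (1.38 to 2.39) in control and 1.61% (1.28 to 2.00) in cKO, and the log2 ratio was -0.19 (-0.70 to 0.34). A difference was not detectable at this number of cells, and the intervals cover counting error only. Fewer recovered cells and a smaller mesothelium in the animal cannot be told apart.

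Genes that the rule did not use were tested with edgeR on the summed counts of each class in each library, with library as a term. The 2 libraries, of different genotype, were the only replicates, with 1 residual degree of freedom. Against all other cells, 807 of 9398 genes were called higher (8.59%) and 566 lower (6.02%) at an adjusted p under 0.05. Against stromal fibroblasts (1 or more Pdgfra UMIs, 2 or more of Dcn and Lum, no Epcam or Ptprc; 625 control and 1393 cKO cells), 1986 of 9394 were higher (21.1%) and 1508 lower (16.1%). Higher calls were 56.8% of all calls against stromal fibroblasts, 67.8% without scaling factors and 42.1% with no filter on low counts. Against all other cells they were 58.8%, and 34% with no filter, so the filter, which asks for UMIs in the mesothelial cells, sets which direction holds more calls. Both comparisons use the same mesothelial sums, so they are not independent. Counts of called list members given below stand beside these shares. List genes with fewer than 20 UMIs in mesothelial cells were not tested, so they could not be called lower. Those tested against all other cells were 11 of 17 complement, 16 of 30 Wnt, 20 of 33 Hox and Mullerian duct and 12 of 19 retinoid genes. Counts of lower genes and list medians depend on this filter. After unnamed and housekeeping classes were left out, 669 genes were higher in both and 339 lower in both.

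The 15 genes with the largest differences were close to absent elsewhere. Nkain4, a sodium pump-interacting membrane protein, had 108 CPM (control) and 113 CPM (cKO), in 31 control and 53 cKO cells, against 0.434 and 0.314 CPM in the other cells (log2 8.11, edgeR adjusted p = 0.00214). Nxph1, a secreted neurexin ligand, had 42.6 CPM (control) and 33.9 CPM (cKO) against 0.0813 and 0.137 CPM (log2 8.21, edgeR adjusted p = 0.00214). Both genes were at or below 0.12 CPM in stromal fibroblasts, and the cell-free RNA held at most 3.94 CPM of either. Chst4, a sulfotransferase that modifies mucin-type sugars, had 12.9 CPM (control) and 19.7 CPM (cKO) against 0 and 0.0982 CPM in other cells (log2 8.09, edgeR adjusted p = 0.00673), and 0 UMIs in stromal fibroblasts. Muc16, the membrane mucin known as CA125, had 58.04 CPM (control) and 90.99 CPM (cKO) against 0.461 and 0.295 CPM (log2 7.53, edgeR adjusted p = 0.00255). Gpm6a, a tetraspan glycoprotein of neurons and mesothelium, had 272 CPM (control) and 341 CPM (cKO), in 42 control and 70 cKO cells, against 1.71 and 2.42 CPM (log2 7.11, edgeR adjusted p = 0.00214).

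Transcription factors stood among these leading genes. Bnc1, the zinc-finger factor basonuclin 1, had 88.99 CPM (control) and 68.2 CPM (cKO) against 0.488 and 0.648 CPM in other cells (log2 6.96, edgeR adjusted p = 0.00214). Sox6, a SOX-family factor, had 45.1 CPM (control) and 56.1 CPM (cKO) (log2 6.92, edgeR adjusted p = 0.00214), and Myrf, the membrane-bound myelin regulatory factor that is also needed in coelomic epithelium, had 70.9 CPM (control) and 107 CPM (cKO) (log2 6.86, edgeR adjusted p = 0.00214). Fgf1, a fibroblast growth factor without a signal peptide, was the most abundant of the 15, at 329 CPM (control) and 517 CPM (cKO) against 4.17 and 3.71 CPM (log2 6.61, edgeR adjusted p = 0.00214). It was found in 42 control and 70 cKO cells. Crb2 (apical polarity), Lgals2 (a galectin), Ccdc85a, Xpnpep2 (a membrane aminopeptidase), Tm4sf5 (a tetraspanin-like protein) and Cybrd1 (an iron-regulated ferric reductase) completed the set, with log2 differences of 6.71 to 7.23. In the plot of leading genes the 15 mesothelial values stand apart from those of stromal fibroblasts and epithelial cells in both libraries.

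**Figure D2:**
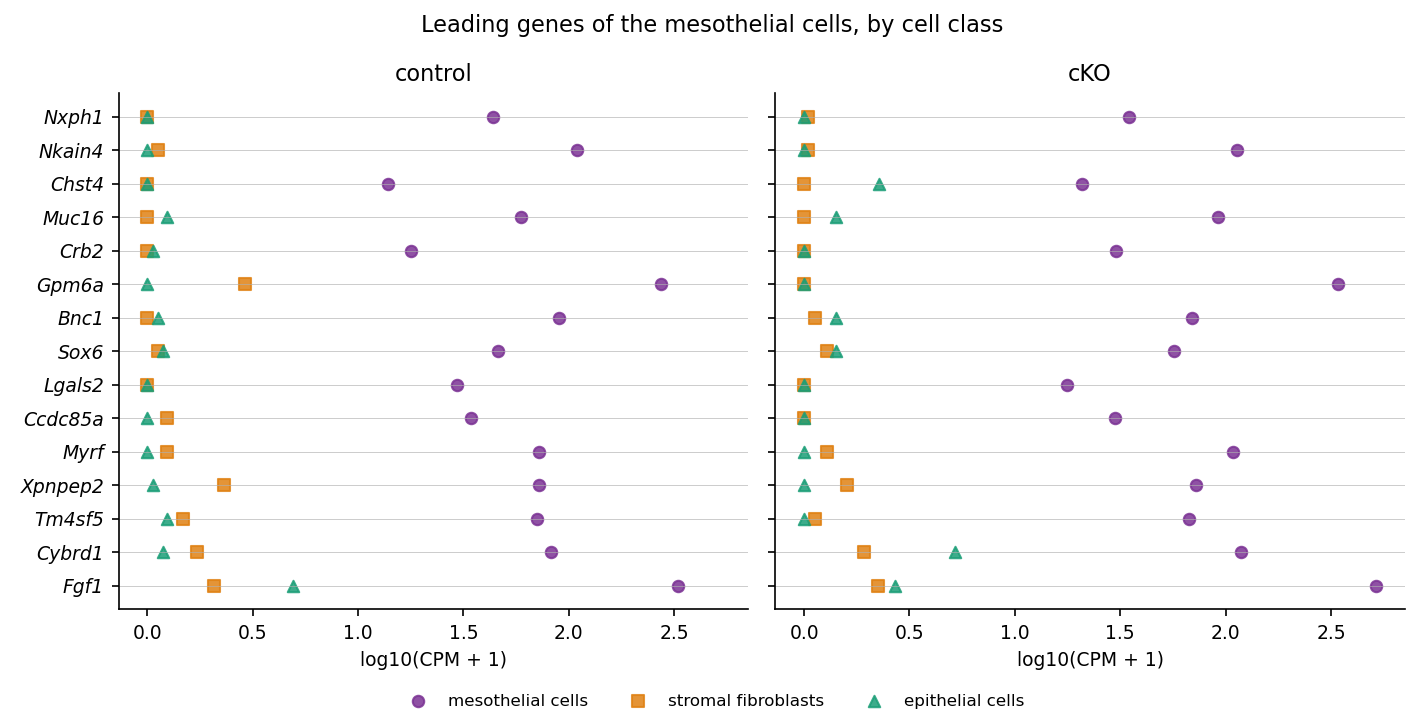
Levels of the 15 leading genes as log10(CPM + 1) in mesothelial cells, stromal fibroblasts and epithelial cells of the control and cKO libraries (1 summed value per class and library, no error bars). Gpm6a and Fgf1 lie highest in both libraries, at 272 to 517 CPM in mesothelial cells, and stromal fibroblasts and epithelial cells stay at or below 4.22 CPM for all 15.

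For position, Gpm6a (ENSMUSG00000031517, chromosome 8, 54954843 to 55060871, plus strand), Muc16 (ENSMUSG00000109564, chromosome 9, 18495455 to 18674530, minus strand), Bnc1 (ENSMUSG00000025105, chromosome 7, 81966672 to 81992292, minus strand) and Upk3b (ENSMUSG00000042985, chromosome 5, 136038496 to 136046487, plus strand) are protein-coding genes on GRCm38 coordinates of GENCODE M21. Of the 23 tested mesothelial genes that the rule does not use, 14 were called higher than in all other cells and none lower (median log2 3.26, against -0.03 over all genes tested), and 20 were called higher and 1 lower than in stromal fibroblasts (median 7.11, against -0.02). Crip1, a small LIM protein, was the most abundant of them at 3086 CPM (control) and 4352 CPM (cKO), against 351 and 264 CPM in other cells (log2 3.48, edgeR adjusted p = 0.00459). Cldn15, a pore-forming claudin, had 85.1 CPM (control) and 119 CPM (cKO) (log2 5.99, edgeR adjusted p = 0.00214), and Rspo1, a secreted Wnt enhancer, 116 CPM (control) and 86.4 CPM (cKO) (log2 5.14, edgeR adjusted p = 0.00214). Gata6, a mesodermal zinc-finger factor, had 317 CPM (control) and 291 CPM (cKO) (log2 3.26, edgeR adjusted p = 0.00433). Pdpn, the mucin-like podoplanin, was the gene called lower, at 334 CPM (control) and 372 CPM (cKO) against 1187 and 1081 CPM in stromal fibroblasts (log2 -1.79, edgeR adjusted p = 4.69e-05). Efemp1 had 276 and 369.5 CPM in mesothelial cells and 238 and 229 CPM in stromal fibroblasts (log2 0.35, edgeR adjusted p = 0.201), and Aldh1a2, the retinoic acid-making enzyme often used as a mesothelial marker, 94.2 and 159 CPM and 46.97 and 239 CPM (log2 0.01, edgeR adjusted p = 0.980).

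Keratins and decorin occurred in the same cells. Dcn was found in all 54 control and all 79 cKO mesothelial cells (lowest 4 and 11 UMIs), and a UMI of Krt8, Krt18 or Krt19 together with Dcn in 52 and 73. A background share of leukocytes was not computed for this pair. Cell-free RNA held 1579 and 3780 CPM of 10 stromal markers, Dcn among them. Krt8 had 1135 CPM (control) and 779 CPM (cKO), Krt18 702 and 436 CPM, Krt19 540.4 and 369 CPM and Krt7 212 and 131 CPM. Against stromal fibroblasts these 4 keratins were higher by 7.11 to 7.84 on the log2 scale (edgeR adjusted p = 2.21e-08 to 8.07e-07). Epithelial cells held more, with 4531 and 4936 CPM of Krt8 and 1771 and 907 CPM of Krt19, and against all other cells none of the 4 was called (edgeR adjusted p = 0.526 to 0.935).

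Cdh3, the P-cadherin, was the 1 of 20 epithelial junction genes called higher than in all other cells, a count near the 8.59% of all genes. It had 70.9 CPM (control) and 98.6 CPM (cKO) against 1.17 and 1.37 CPM in all other cells (log2 5.94, edgeR adjusted p = 0.00214), and 0.242 and 0 CPM in epithelial cells. Cdh1, the E-cadherin of epithelia, was called lower than in all other cells, at 50.3 CPM (control) and 2.53 CPM (cKO) against 446 and 56.9 CPM (log2 -3.72, edgeR adjusted p = 0.00537), with 909 and 844 CPM in epithelial cells. So were the tight-junction claudins Cldn3, Cldn4 and Cldn7 (log2 -3.98 to -3.46, edgeR adjusted p = 0.0108 to 0.0286). Epcam, an epithelial adhesion protein, had 157 CPM (control) and 125 CPM (cKO) and was found in 24 of 54 (44.4%, 30.9 to 58.6) and 43 of 79 cells (54.4%, 42.8 to 65.7). Cdh1 was found in 3 and 5 cells, and 2 and 4 of these also held Epcam. The cells with an Epcam UMI were deeper, with a median of 17095.5 UMIs against 4332.5 in control and 23222 against 6965.5 in cKO. Thinned to 1000 UMIs, Epcam was found in 6 of 53 and 8 of 78 mesothelial cells, against 12 of 766 and 9 of 1756 leukocytes. Against stromal fibroblasts, 14 of the 19 tested junction genes, without Epcam, were called higher, among them Pard6b, a polarity adaptor, at 242 CPM (control) and 208 CPM (cKO) (log2 9.37, edgeR adjusted p = 2.29e-08) and Jup, plakoglobin, at 79.96 CPM (control) and 84.4 CPM (cKO) (log2 3.56, edgeR adjusted p = 1.14e-06). The 1 gene called lower was Pard3, a polarity scaffold (log2 -1.15, edgeR adjusted p = 0.00367).

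**Figure D3:**
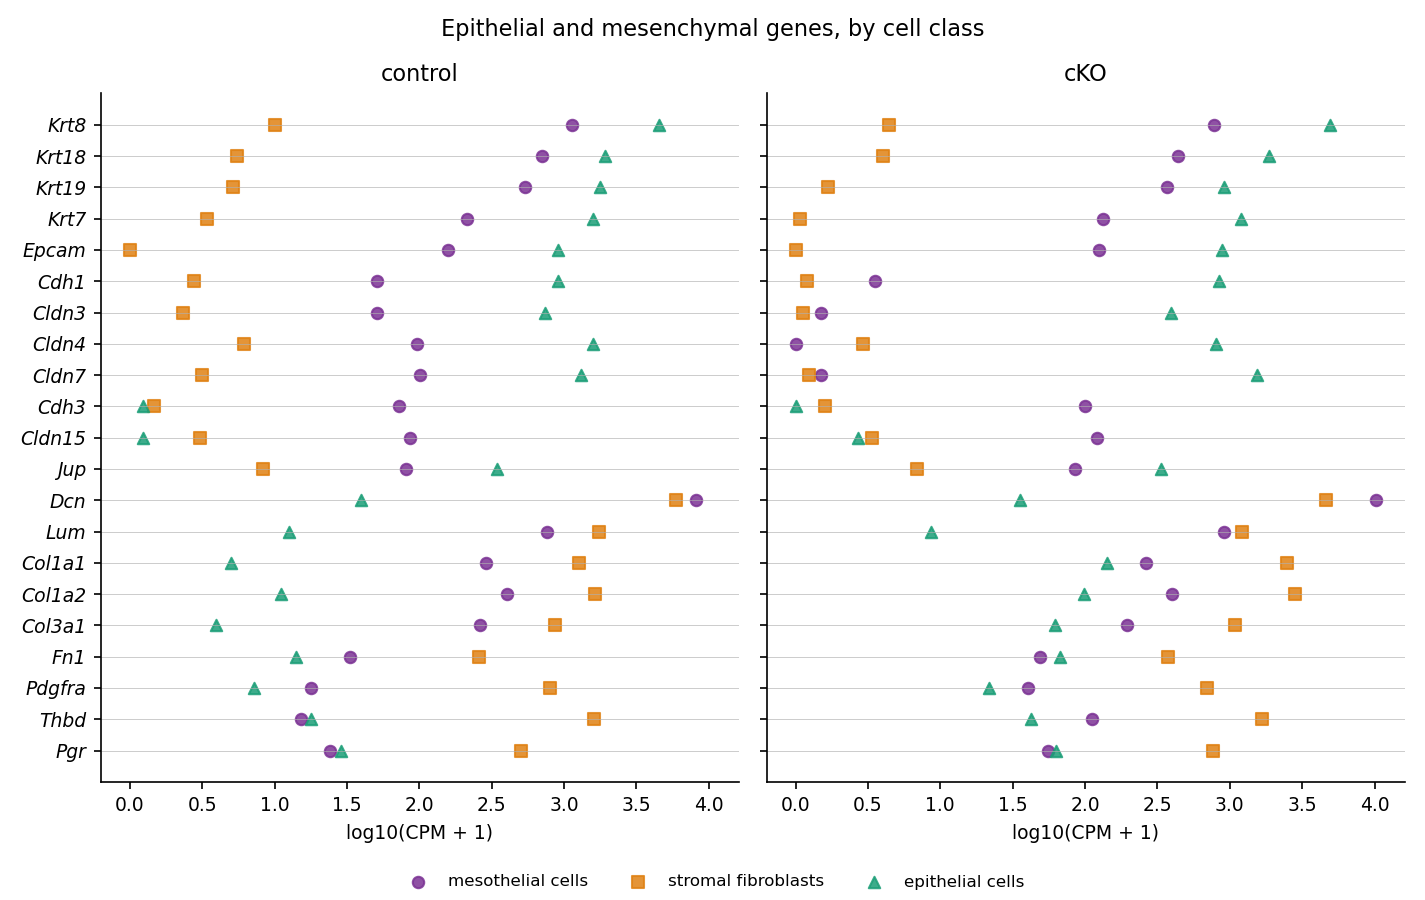
Levels of keratins, junction genes and mesenchymal genes as log10(CPM + 1) in mesothelial cells, stromal fibroblasts and epithelial cells, by library (1 summed value each). Mesothelial cells lie between stromal fibroblasts and epithelial cells for Krt8, Krt18 and Krt19, and above both for Cdh3; stromal fibroblasts have no Epcam UMI by their definition.

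Markers of other cell types bear on these values. The 10 epithelial markers summed to 831 CPM in control mesothelial cells and 333 CPM in cKO, against 3066 and 283 CPM in cell-free RNA, and Cldn4, Ltf, Foxa2 and Prom1 had 0 UMIs in cKO. A single control cell held 212 UMIs of Cdh1, Cldn3, Cldn4 and Cldn7, and 3 control and 0 cKO cells had 5 or more. At least 5 UMIs of Pdgfra were found in 0 control and 3 cKO cells, of the endothelial genes Cdh5 and Prox1 in 0 and 1, and of 9 leukocyte genes in 1 and 4. Together 4 control and 8 cKO cells met one of these limits, and they held 10.8% and 23.6% of the mesothelial UMIs. The 10 stromal fibroblast markers, Dcn among them, summed to 9525 and 11834 CPM in mesothelial cells, 12229.5 and 11897 CPM in stromal fibroblasts and 1579 and 3780.1 CPM in cell-free RNA. These sums do not place each marker at the stromal level. Dcn was found in all mesothelial cells and Lum in 47 and 71, but Pdgfra in only 8 and 11. Dpt had 1.29 and 37.4 CPM there, against 1071 and 1143 CPM in stromal fibroblasts. Lymphatic endothelial markers had 335 and 469.6 CPM, beside 204 and 484 CPM in cell-free RNA, with Prox1, Ccl21a, Flt4 and Mmrn1 at 0 UMIs in the control mesothelial cells and all 6 markers found in the cKO ones. Pdpn, which is also on the mesothelial list, is among these markers and holds most of both mesothelial sums. Summed smooth muscle markers had 257 and 266 CPM, immune markers 41.3 and 33.9 CPM and erythroid markers 6.45 and 2.02 CPM. Without the 12 cells that met one of the limits, the log2 ratio of cKO over control, described below, moved from 1.24 to 0.97 for Hsp90b1, from 1.39 to 0.94 for S100a4 and from -1.91 to -1.48 for Ccl7, and the median of the cytokine list from 0.07 to 0.43 over 18 genes.

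Of 13 glycocalyx, lubricant and water transport genes, 6 were called higher than in all other cells and 2 lower (median log2 1.38). Atp1b1, the sodium pump beta subunit, had 384 CPM (control) and 378 CPM (cKO) against 44.6 and 28.8 CPM in other cells (log2 3.30, edgeR adjusted p = 0.00436). Gpc3, a cell-surface heparan sulfate proteoglycan, had 308 CPM (control) and 310.4 CPM (cKO) (log2 3.24, edgeR adjusted p = 0.00523) and Podxl, a charged sialomucin, 50.3 CPM (control) and 84.9 CPM (cKO) (log2 3.67, edgeR adjusted p = 0.00459). The 2 lower genes were Has2, a hyaluronan synthase, at 2.58 CPM (control) and 19.7 CPM (cKO) against 182 and 333 CPM in stromal fibroblasts (log2 -4.61, edgeR adjusted p = 9.22e-07), and the hyaluronan receptor Cd44 at 55.5 CPM (control) and 116 CPM (cKO) against 949 and 766 CPM (log2 -3.44, edgeR adjusted p = 4.23e-06). Prg4, the joint lubricant lubricin, had 17 UMIs in control and 4 in cKO, in 4 control and 3 cKO cells (log2 4.40, edgeR adjusted p = 0.102).

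Of 25 tested basement membrane and fibrillar genes 18 were called lower than in stromal fibroblasts and 3 higher, beside 16.1% and 21.1% of all genes (median log2 -1.90). Against all other cells the split was smaller, with 5 of 27 lower and 4 higher, beside 6.02% and 8.59% of all genes (median log2 -0.93). The values that follow are against stromal fibroblasts. Col1a1, a chain of type I collagen, had 289 CPM (control) and 262 CPM (cKO) against 1272 and 2497 CPM (log2 -2.81, edgeR adjusted p = 2.21e-05), and Fn1, fibronectin, 32.2 CPM (control) and 48.02 CPM (cKO) against 259 and 374 CPM (log2 -3.09, edgeR adjusted p = 1.29e-06). The 3 higher genes were the basement membrane components Nid2, at 20.6 CPM (control) and 40.9 CPM (cKO) against 1.91 and 1.05 CPM (log2 4.41, edgeR adjusted p = 3.03e-05), Lama5 (log2 2.40, edgeR adjusted p = 0.00272) and Col18a1 (log2 1.06, edgeR adjusted p = 0.00623). Of 21 genes listed for mesothelial to mesenchymal transition, 12 were lower and 2 higher (median log2 -1.25). Snai1 and Zeb2, repressors of epithelial genes, had 18.1 and 17.7 CPM and 49.01 and 26.8 CPM in mesothelial cells, against 78.3 and 65.3 CPM and 351 and 487 CPM in stromal fibroblasts (edgeR adjusted p = 7.06e-05 and 5.91e-06). Vim, the vimentin filament gene, was at 854 and 920.0 CPM against 1424 and 980.0 CPM (log2 -0.52, edgeR adjusted p = 0.0814), and Tgfb3 was higher at 28.4 and 26.8 CPM against 8.96 and 6.14 CPM (log2 1.81, edgeR adjusted p = 0.00114).

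Of 24 tested growth factors and binding proteins, 12 were higher than in all other cells and 3 lower (median log2 1.54). Fgf9, a ligand made by epithelia and mesothelia, had 152 CPM (control) and 211 CPM (cKO) against 5.42 and 3.95 CPM (log2 5.18, edgeR adjusted p = 0.00317). Igfbp6, which binds IGF2, had 1559 CPM (control) and 2329 CPM (cKO) against 129 and 448 CPM (log2 2.88, edgeR adjusted p = 0.00751), and Igf1 658 CPM (control) and 1068 CPM (cKO) against 93.04 and 441 CPM (log2 1.93, edgeR adjusted p = 0.0291). The bone morphogenetic proteins Bmp4 and Bmp2 had 121 and 100.1 CPM and 138 and 189 CPM (log2 3.54, edgeR adjusted p = 0.00398, and log2 2.23, edgeR adjusted p = 0.00798). The 3 lower genes were the receptors Fgfr1 (log2 -1.80, edgeR adjusted p = 0.00893) and Egfr (log2 -1.73, edgeR adjusted p = 0.0126) and the activin antagonist Fst (log2 -1.50, edgeR adjusted p = 0.0237).

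Of 16 tested Wnt pathway genes 8 were higher than in other cells and 1 lower (median log2 1.71). The ligands Wnt4 and Wnt11 had 141 and 126 CPM and 19.3 and 33.4 CPM (log2 1.92, edgeR adjusted p = 0.0166, and log2 1.97, edgeR adjusted p = 0.0175). The secreted antagonists Sfrp1 and Sfrp2 had 94.2 and 108 CPM and 33.5 and 47.01 CPM (log2 3.12, edgeR adjusted p = 0.00448, and log2 4.28, edgeR adjusted p = 0.00333), and Sfrp4 was lower at 0 and 15.2 CPM against 116 and 287 CPM in stromal fibroblasts (log2 -4.78, edgeR adjusted p = 2.93e-06). The target gene Axin2 had 42.6 and 74.3 CPM against 25.4 and 68.3 CPM in other cells (log2 0.30, edgeR adjusted p = 0.483).

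In the retinoid pathway 3 of 12 genes were called higher than in other cells and none lower: Rarres2, which encodes the chemoattractant chemerin, at 878 CPM (control) and 1086 CPM (cKO) (log2 3.69, edgeR adjusted p = 0.00430), Aldh1a1 (log2 2.37, edgeR adjusted p = 0.0167) and the retinoic acid-clearing enzyme Cyp26a1 (log2 4.79, edgeR adjusted p = 0.0288). Cyp26a1 had 17 UMIs in control and 15 in cKO, and 88.2% of its control UMIs came from 1 cell. Of 11 tested hedgehog and Notch genes 3 were higher, among them the Notch ligand Dll1 at 33.5 CPM (control) and 38.9 CPM (cKO) (log2 2.93, edgeR adjusted p = 0.00645), and 1 was lower, the receptor Notch1 (log2 -2.18, edgeR adjusted p = 0.0115), which as 1 of 11 is near the share over all genes.

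Hox genes mark position along the body axis. Of 20 tested Hox and Mullerian duct genes 8 were higher than in other cells and none lower (median log2 0.76). The 8 were Hoxa3, Hoxa5, Hoxa7, Hoxa9, Hoxc6, Hoxc8, Hoxc9 and Hoxc10. Against stromal fibroblasts 8 of the 20 genes were higher and 4 lower, with a median log2 of -0.02. Hoxc8 had 51.6 CPM (control) and 48.02 CPM (cKO) against 3.94 and 1.25 CPM in stromal fibroblasts (log2 4.41, edgeR adjusted p = 4.65e-06), and Hoxa5 54.2 CPM (control) and 42.97 CPM (cKO) against 5.26 and 3.07 CPM (log2 3.49, edgeR adjusted p = 4.28e-06). Hoxa11, a uterine identity gene, was lower than in stromal fibroblasts at 3.87 and 15.7 CPM against 14.5 and 34.7 CPM (log2 -1.46, edgeR adjusted p = 0.00552). For Hoxa10, needed for uterine receptivity, the values were 51.6 and 37.9 CPM and 43.9 and 86.2 CPM (log2 -0.66, edgeR adjusted p = 0.134), and for Hoxd11 117 and 167 CPM and 104 and 169 CPM (log2 -0.04, edgeR adjusted p = 0.891). These gene clusters are dense and hold antisense transcripts, and the strand setting of the counting is not given in the sources used here.

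Of 11 tested complement genes 7 were called higher than in other cells and none lower (median log2 2.03). Serping1, the inhibitor of the first classical component, had 553 CPM (control) and 555 CPM (cKO) against 91.4 and 133 CPM in other cells (log2 2.22, edgeR adjusted p = 0.00657). The classical pathway genes C2 and C4b had 157 and 209 CPM and 217 and 111 CPM (log2 4.54, edgeR adjusted p = 0.00551, and log2 2.94, edgeR adjusted p = 0.00365). C3, the central component, was among the most abundant at 2024 CPM (control) and 3244 CPM (cKO). It was higher than in stromal fibroblasts (log2 2.89, edgeR adjusted p = 2.1e-06), and epithelial cells held 2153 and 1392 CPM (log2 2.03, edgeR adjusted p = 0.116 against all other cells).

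Of 28 tested cytokine, chemokine and acute inflammation genes 4 were higher than in other cells and 11 lower (median log2 -1.71). Lif, Il6 and Cxcl5, a cytokine pair and a neutrophil chemokine, were among the 6 named lower genes. Lif had 9.03 CPM (control) and 13.6 CPM (cKO) against 542 and 850.0 CPM in stromal fibroblasts (log2 -6.07, edgeR adjusted p = 5.28e-08), and Il6 7.74 CPM (control) and 9.60 CPM (cKO) against 155 and 479 CPM (log2 -5.41, edgeR adjusted p = 4.08e-07). The few Cxcl5 UMIs came almost all from 1 cKO cell (96% of 50). Dpt, which encodes the fibroblast matrix protein dermatopontin, had 1 UMI in control and 74 in cKO (log2 -4.99, edgeR adjusted p = 0.0103), and Ly6a and Emb were lower in both comparisons (log2 -4.40 and -4.26 against other cells). The 4 higher genes were the alarmin-type cytokines Il18, at 41.3 CPM (control) and 19.7 CPM (cKO) (log2 4.13, edgeR adjusted p = 0.00490), and Il33, at 19.3 CPM (control) and 27.8 CPM (cKO) (log2 2.27, edgeR adjusted p = 0.0199), the protease inhibitor Slpi (log2 2.56, edgeR adjusted p = 0.0320) and the prostaglandin synthase Ptgs1, at 134 CPM (control) and 187 CPM (cKO) against 6.39 and 6.38 CPM (log2 4.53, edgeR adjusted p = 0.00255).

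None of 12 tested coagulation and fibrinolysis genes was higher than in other cells and 5 were lower (median log2 -0.80). Thbd, the thrombin receptor thrombomodulin, had 14.2 CPM (control) and 111 CPM (cKO) against 1598 and 1677 CPM in stromal fibroblasts (log2 -5.06, edgeR adjusted p = 8.24e-06).

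Among steroid receptors the oestrogen receptor Esr1 had 161 CPM (control) and 151 CPM (cKO), in 39 control and 56 cKO cells, against 88.2 and 168 CPM in stromal fibroblasts (log2 0.22, edgeR adjusted p = 0.535). The progesterone receptor Pgr was lower, at 23.2 CPM (control) and 54.6 CPM (cKO) against 506 and 769 CPM in stromal fibroblasts (log2 -4.18, edgeR adjusted p = 2.88e-07). Across the 10 tested steroid genes 1 was called higher and 2 lower than in other cells, beside 8.59% and 6.02% of all genes. Of 24 immediate early genes, which respond within minutes to handling and to stimuli, 14 were higher and none lower than in stromal fibroblasts (median log2 0.70), with Fos at 1514 and 1660.1 CPM against 418 and 457 CPM (log2 1.75, edgeR adjusted p = 5.18e-05). Against all other cells 6 of the 24 were higher and 1 lower (median log2 0.59). Of 14 heat shock genes 7 were higher and none lower than in stromal fibroblasts, with Hspa1a at 1376 and 1061 CPM against 159 and 308 CPM (log2 2.34, edgeR adjusted p = 0.000145). Digestion lasted for hours at body temperature, per the labels, and its part in these levels was not tested. Of 9 tested cell cycle genes 1 was higher than in other cells, Stmn1 (log2 2.32, edgeR adjusted p = 0.00601), and none lower; 1 of 9 is near the share over all genes.

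The cKO and control mesothelial cells were then compared as summed values, with no p-value. Prickle1, the targeted gene (ENSMUSG00000036158, chromosome 15, 93499114 to 93595891, minus strand), had 5 UMIs in control, 6.45 CPM (2.09 to 15.05), and 20 in cKO, 10.1 CPM (6.18 to 15.6), in 4 control and 17 cKO cells. The log2 ratio was 0.55 (-0.81 to 2.42), and cell-free RNA held 1.55 and 5.69 CPM. Reads from 3′ ends cannot reveal an internal deletion, so Prickle1 does not check the labels, and the Ltf gene that drives the Cre had 0 UMIs in cKO mesothelial cells (up to 1.52 CPM) and 68 in control, 55 of them in 1 cell. None of the 12 planar cell polarity genes tested differed by 2-fold, beside 3.98% of all genes that were 2-fold higher and 2.62% 2-fold lower, so a count of 0 is near the share over all genes. The cell surface receptors Ryk, at 103 and 119 CPM, and Ror2, at 63.2 and 96.05 CPM, were the most abundant.

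Of 8270 genes with at least 30 UMIs over both libraries, 329 (3.98%) were at least 2-fold higher in cKO mesothelial cells and 217 (2.62%) at least 2-fold lower, with a median log2 ratio of 0.11. Counts of list genes past 2-fold given below stand beside these shares. With each cell weighted equally the counts were 813 and 411. The 23 mesothelial genes outside the rule showed none past 2-fold in either direction (median 0.15). Gpm6a had a log2 ratio of 0.32 (0.10 to 0.56) and Muc16 of 0.64 (0.17 to 1.15). Krt8 had -0.54 (-0.66 to -0.42), but 1 control cell held 34.2% of the control UMIs, and without it the log2 ratio was -0.024, with 792 CPM in control and 779 in cKO. None of the 10 complement genes and 14 heat shock genes passed 2-fold either. For lists of this size a count of 0 is near the share over all genes.

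Of the genes that met the naming rule (UMIs in at least 10 cells, no more than 50% in 1 cell, a CPM not under that of cell-free RNA, all in the higher library), 12 rises and 12 falls are described. Of these, 5 rises (Igfbp5, Has1, Phgdh, Pdia4 and Spindoc) and 6 falls (Hpgd, Tcea3, Hist1h1c, Cryab, Iigp1 and Smpdl3a) were past 2-fold under every alternative that gave a value, and the others were not. Of these 11, Spindoc rested on 10 UMIs in control and 98 in cKO, and a single cell supplied 42.9% of those in cKO. For Iigp1 30.6% of the control UMIs came from 1 cell.

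Igfbp5, a secreted IGF-binding protein, ranked first among the 12 rises by the lower limit of its interval. It had 189 UMIs in control and 1684 in cKO, 244 and 851 CPM, in 33 control and 66 cKO cells, a ratio of 3.49 (95% interval 3.003 to 4.08). The median cell held 1 UMI in control and 11 in cKO, and the largest share of any 1 cell was 12.6%. In stromal fibroblasts the values were 469.7 and 509.7 CPM, over all other cells the log2 ratio was 1.30, and cell-free RNA held 81.1 and 249 CPM. Igfbp5 kept a log2 ratio of 1.77 to 2.25 over all alternatives tried.

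Has1, a hyaluronan synthase, had 92.9 CPM (control) and 309 CPM (cKO), a ratio of 3.33 (95% interval 2.60 to 4.31), and stromal fibroblasts had 245 and 485 CPM. Its log2 ratio was 1.73 in mesothelial cells, 0.98 in stromal fibroblasts, 1.66 in leukocytes and 2.05 over all other cells, and cell-free RNA held 41.1 and 193 CPM. Slpi, which inhibits leukocyte proteases, had 186 CPM (control) and 531 CPM (cKO), a ratio of 2.86 (95% interval 2.40 to 3.43), with 12.1 and 0.202 CPM in stromal fibroblasts, 36.9 and 106 CPM in epithelial cells (ratio 2.86) and 175 and 124 CPM in leukocytes. Cell-free RNA held 26.4 and 109 CPM of it. The mesothelial log2 ratio of 1.51 was 0.94 with each cell weighted equally and 0.99 without the cells above 50000 UMIs. In the cells without an Epcam UMI the log2 ratio of Slpi was -0.37. Klf2, a flow-responsive transcription factor, had 266 CPM (control) and 674 CPM (cKO), a ratio of 2.54 (95% interval 2.19 to 2.95), and 31.8% of the cKO UMIs came from 1 cell. Its log2 ratio of 1.34 was under 2-fold after thinning (0.65), without the cells above 50000 UMIs (0.84) and in the cells without an Epcam UMI (0.90).

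Hsp90b1, the endoplasmic reticulum chaperone GRP94, had 424 CPM (control) and 1003 CPM (cKO), a ratio of 2.36 (95% interval 2.10 to 2.67), and Pdia4, a disulfide isomerase, 58.04 CPM (control) and 168 CPM (cKO), a ratio of 2.89 (95% interval 2.11 to 4.04). In cKO 1 cell held 23.2% and 30.1% of their UMIs, and without the 1 cell above the doublet limit their log2 ratios went from 1.24 to 0.89 and from 1.52 to 1.03. In cells without an Epcam UMI they moved the other way, to 2.40 and 2.39. Sdf2l1, a chaperone cofactor, had 3 UMIs in control and 46 in cKO, and its log2 ratio of 2.38 was -0.044 when each cell was weighted equally. In stromal fibroblasts the same 3 genes had log2 ratios of 0.93 to 1.11, and over all other cells of -0.088, -0.0063 and -0.85. The DNA repair enzyme Parp1, at 30.95 CPM (control) and 125 CPM (cKO) (ratio 4.03, 95% interval 2.65 to 6.42), and Phgdh, the first enzyme of serine synthesis, at 50.3 CPM (control) and 164 CPM (cKO) (ratio 3.26, 95% interval 2.33 to 4.66), were higher too. Phgdh had log2 ratios of 1.29 in stromal fibroblasts, 1.25 in leukocytes and 1.66 over all other cells, and cell-free RNA held 43.4 and 114 CPM. In mesothelial cells its log2 ratio went from 1.69 to 4.67 in those without an Epcam UMI. For Parp1 1 cKO cell held 28.7% of the UMIs, and its log2 ratio of 1.99 was 0.67 with each cell weighted equally and 0.71 in cells without an Epcam UMI, both under 2-fold. Pkhd1l1, a large receptor-like protein, had 23.2 CPM (control) and 74.8 CPM (cKO), a ratio of 3.22 (95% interval 1.97 to 5.59), and at most 0.162 CPM in stromal fibroblasts, and its log2 ratio of 1.65 was 0.88 after thinning and 0.95 without an Epcam UMI. S100a4 and Spindoc completed the 12, and S100a4 turned from 1.39 to -0.74 on the log2 scale when cells were thinned.

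**Figure D4:**
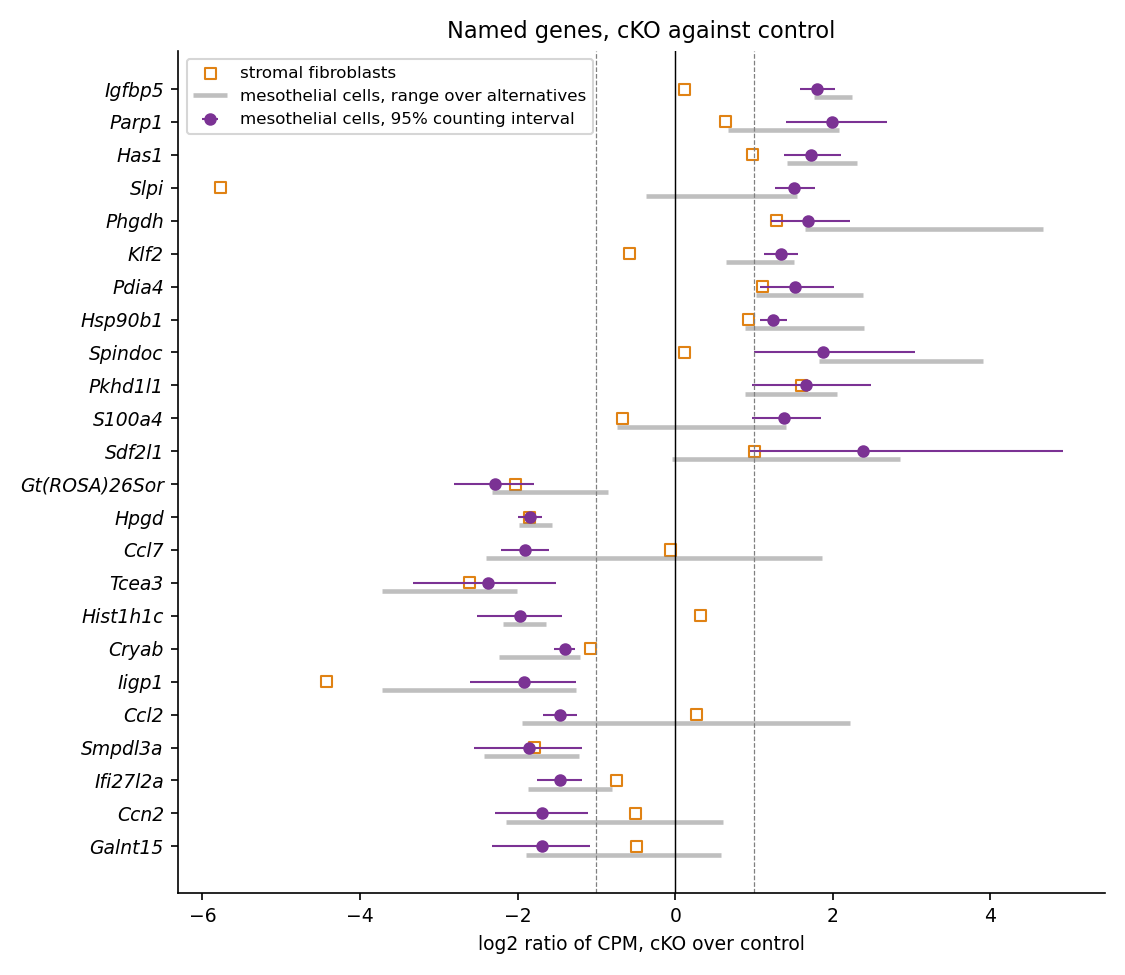
Log2 ratio of CPM, cKO over control, for the 12 named rises and 12 named falls in mesothelial cells (points, with 95% counting intervals), the range over alternative settings (grey bars) and the ratio in stromal fibroblasts (open squares). Dashed lines mark 2-fold; grey bars that cross 0 belong to Slpi, S100a4, Sdf2l1, Ccl7, Ccl2, Ccn2 and Galnt15.

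Hpgd, the enzyme that inactivates prostaglandins, was lower in cKO under every alternative tried. It had 823 UMIs in control and 585 in cKO, 1061 and 296 CPM, in 37 control and 55 cKO cells, a ratio of 0.279 (95% interval 0.2502 to 0.310). Stromal fibroblasts had 95.4 and 26.5 CPM, a log2 ratio of -1.85 against -1.84 in mesothelial cells and -0.74 over all other cells. Cryab, a small heat shock protein, had 1229 CPM (control) and 465 CPM (cKO), a ratio of 0.378 (95% interval 0.345 to 0.414), and 879 and 416 CPM in stromal fibroblasts. Its log2 ratio was -1.40 in mesothelial cells and -1.08 in stromal fibroblasts, but 0.10 over all other cells, 0.43 in leukocytes and 3.15 in epithelial cells. In mesothelial cells without an Epcam UMI it was -2.24. Gt(ROSA)26Sor, the noncoding transcript of the Rosa26 locus, had 126 CPM (control) and 25.8 CPM (cKO) (ratio 0.204, 95% interval 0.142 to 0.289), a log2 ratio of -2.29 (beside -2.03 in stromal fibroblasts, -1.90 in leukocytes). After thinning it was -0.85, under 2-fold.

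Tcea3, a transcription elongation factor, had 35 UMIs in control and 17 in cKO, a log2 ratio of -2.37 (-3.32 to -1.52), and Smpdl3a, a phosphodiesterase, 47 UMIs in control and 33 in cKO, a ratio of 0.275 (95% interval 0.171 to 0.439). The linker histone Hist1h1c had 99.3 CPM (control) and 25.3 CPM (cKO), a ratio of 0.255 (95% interval 0.175 to 0.368), and Galnt15 67.1 CPM (control) and 20.7 CPM (cKO). The log2 ratio of Galnt15 turned from -1.69 to 0.58 after thinning. The monocyte chemokines Ccl2 and Ccl7 had 482 and 174 CPM and 294 and 78.4 CPM, but 47.3% and 45.2% of their control UMIs came from 1 cell, and without the cells that hold an Epcam UMI their log2 ratios were 2.21 and 1.87 in place of -1.47 and -1.91. Ccn2, a matricellular target of TGF-beta and YAP, went from -1.69 to 0.61 in the same way.

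Many interferon-response genes were lower in the cKO library. Of 28 tested genes 13 were at least 2-fold lower and none 2-fold higher, beside 2.62% and 3.98% of all genes (median log2 -0.95, against 0.11 over all genes). Isg15, a ubiquitin-like modifier, had 59.3 CPM (control) and 16.2 CPM (cKO), a ratio of 0.273 (95% interval 0.168 to 0.437), and Ifi27l2a, a mitochondrial interferon-induced protein, 271 CPM (control) and 98.1 CPM (cKO), a ratio of 0.362 (95% interval 0.296 to 0.442). The log2 ratio of Ifi27l2a went from -1.47 to -0.92 with each cell weighted equally and -0.80 after thinning. Iigp1, an immunity-related GTPase, had 63.2 CPM (control) and 16.7 CPM (cKO), a ratio of 0.264 (95% interval 0.164 to 0.419). Cell-free RNA held 52.0 CPM (control) and 10.9 CPM (cKO) of Iigp1, near the mesothelial values, and 135 and 42.9 CPM of Ifi27l2a. The part of free RNA in these falls was not tested. For the same 28 genes the median was -2.06 in stromal fibroblasts and -1.80 in leukocytes, and Isg15 in cell-free RNA was 387 CPM in control and 42.9 CPM in cKO. Cxcl10, a T-cell chemokine, lay on the other side in mesothelial cells, at 98.02 CPM (control) and 166 CPM (cKO) (log2 0.75, 95% interval 0.39 to 1.14), with -3.14 in stromal fibroblasts and -3.24 in leukocytes. Whether the classes differ was not tested, since each has 1 library per group. The mesothelial median moved to -0.32 when each cell was weighted equally, and to -0.35 over 20 genes without the 11 cells above 50000 UMIs. It was -0.26 over 11 genes in cells without an Epcam UMI, and -0.12 over the 8 genes with at least 100 UMIs.

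Antigen presentation genes showed 8 of 17 at least 2-fold lower and none 2-fold higher, beside 2.62% and 3.98% of all genes. Their median log2 ratio was -0.86, against 0.11 over all genes, and -0.53 with each cell weighted equally. B2m, the light chain of class I molecules, had 1112 CPM (control) and 548 CPM (cKO), in 46 control and 77 cKO cells, a ratio of 0.493 (95% interval 0.450 to 0.540). H2-T23, a nonclassical class I gene, had 60.6 CPM (control) and 19.2 CPM (cKO), a ratio of 0.317 (95% interval 0.201 to 0.497). The class II genes Cd74, H2-Aa, H2-Ab1 and H2-Eb1 had few UMIs, with Cd74 at 130 UMIs in control and 52 in cKO, and 38.5% of the control UMIs lay in 1 cell. H2-Q6 and H2-Q7, which are close copies of each other that a short read may not tell apart, had 24 UMIs in control and 6 in cKO, and 26 UMIs in control and 11 in cKO, in that order. The stromal median of the 17 genes was -0.78 and the leukocyte median -0.58. Tapbp, a loader of class I peptides, lay higher in cKO mesothelial cells at 157 CPM (control) and 257 CPM (cKO) (log2 0.70, 95% interval 0.42 to 1.00).

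**Figure D5:**
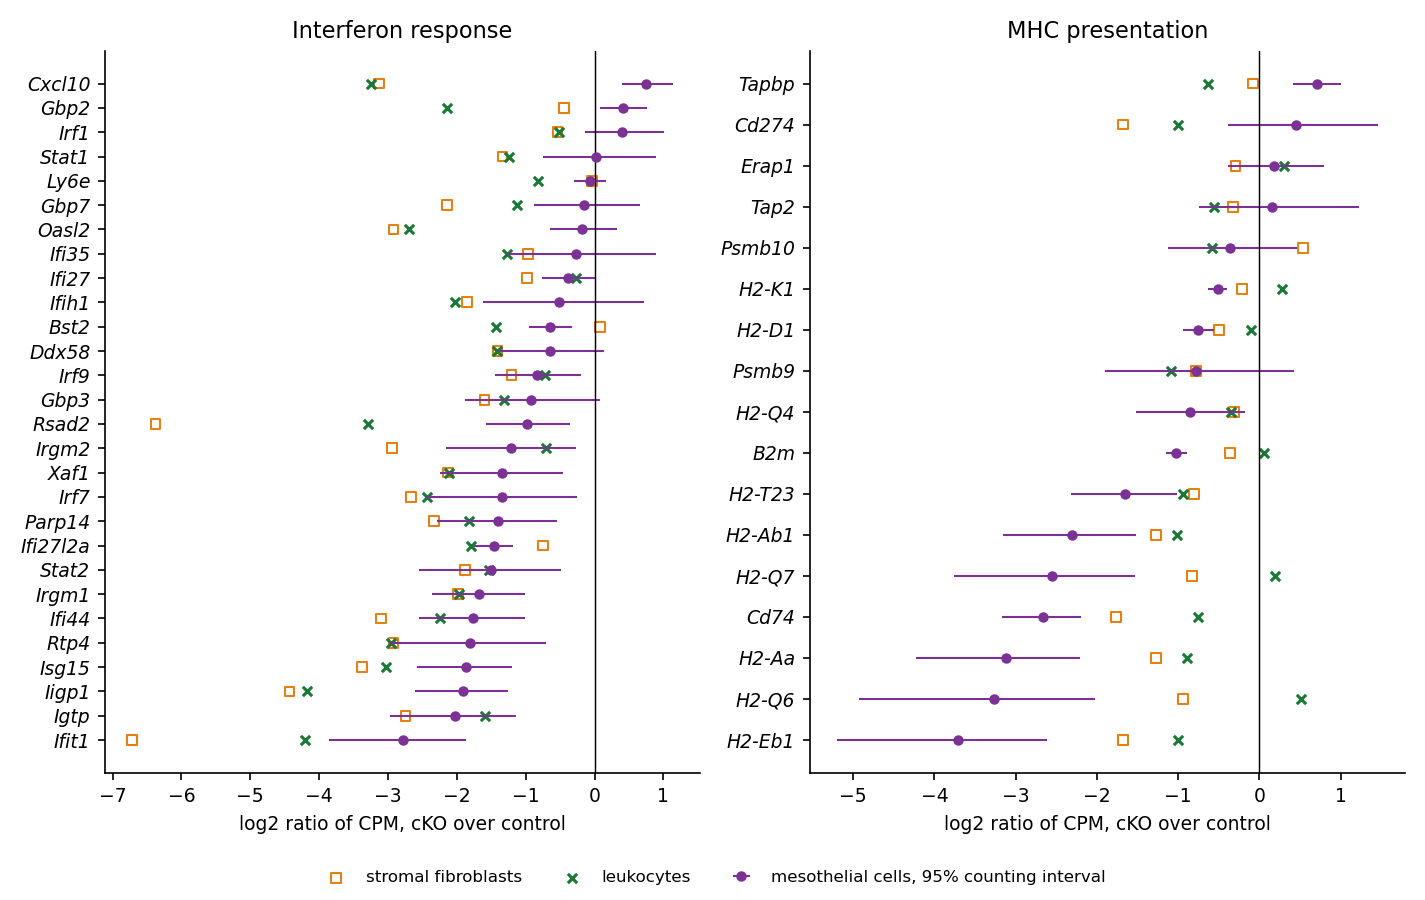
Log2 ratio of CPM, cKO over control, for 28 interferon-response and 17 antigen presentation genes in mesothelial cells (points, with 95% counting intervals), stromal fibroblasts (open squares) and leukocytes (crosses). Most points lie left of 0; Cxcl10 lies at 0.75 in mesothelial cells and near -3 in the other 2 classes.

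Several list genes passed 2-fold on the UMIs of 1 cell. Inhba, an activin subunit, had 7 UMIs in control and 455 in cKO, and 84.8% of the cKO UMIs came from 1 cell. Of the 20 epithelial junction genes 6 were at least 2-fold lower in cKO and none higher, and 72% to 97.4% of the control UMIs of Cdh1, Cldn3, Cldn4, Cldn7, Dsg2 and Crb3 came from 1 cell each. Without the 12 cells that hold 5 or more UMIs of another class, the median log2 ratio of the list turned from -0.28 to 0.22, over 12 genes. Lcn2, an iron-carrier protein of epithelia, had 140 UMIs in control and 1 in cKO, with 87.9% in 1 control cell, and Cxcl2 117 UMIs in control and 40 in cKO, with 98.3% in 1. Saa3, an acute phase protein, had 0 UMIs in control and 96 in cKO, in 5 cKO cells.

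Thbd had 11 UMIs in control and 220 in cKO, in 7 control and 39 cKO cells, a ratio of 7.84 (95% interval 4.30 to 15.9), and cell-free RNA held 203 and 492 CPM of it. Csf1, a macrophage growth factor, had 85.1 CPM (control) and 197 CPM (cKO), a ratio of 2.31 (95% interval 1.78 to 3.05). The water channel Aqp1, at 21.9 CPM (control) and 52.6 CPM (cKO) (ratio 2.40, 95% interval 1.43 to 4.27), was higher, and Aqp5, at 76.1 CPM (control) and 35.9 CPM (cKO) (ratio 0.472, 95% interval 0.329 to 0.678), was lower. Pgr had 23.2 CPM (control) and 54.6 CPM (cKO), a ratio of 2.35 (95% interval 1.42 to 4.12), below its cell-free level of 95.03 and 371 CPM in both libraries. Among 21 genes of mesenchymal transition 1 was higher, the repressor Zeb1 at 27.1 CPM (control) and 62.7 CPM (cKO) (ratio 2.31, 95% interval 1.45 to 3.87), and 1 was lower, Ccn2, both near the shares over all genes. Of 24 immediate early genes only Klf2 passed 2-fold, and not under the alternatives given above. The growth factor list held 3 higher genes of 23 (Igfbp5, Igfbp3 and Inhba) and 1 lower (Pdgfc), and the Wnt list 1 higher of 14 (Sfrp4, 0 UMIs in control and 30 in cKO, 90% in 1 cell) and none lower. The 1 lower of 23 and the 1 higher of 14 are near the shares over all genes.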

How the data were processed

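Single-cell suspensions of whole uterus were profiled in 1 library per group, each a pool of 3 mice. The deposited values are raw UMI counts per gene and barcode, unfiltered, from Cell Ranger 4 per the file headers, with Cell Ranger 6.1.1 and build mm10 per the submitters' processing notes. Counting settings are not given in the sources used here. All 32285 genes were kept, and 32158 of their identifiers were found in GENCODE M21.

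The mesothelial cells and the 20 gene lists were chosen with earlier results of these data known. Cells were scored against simulated doublets (2 per cell, assumed rate 0.06), with no cell removed, and the profile of free RNA came from barcodes of up to 100 UMIs. Class tests used edgeR 4.0.16 (R 4.3.3; glmQLFit and glmQLFTest, TMM factors, Benjamini-Hochberg adjustment) on 4 summed counts, for genes with at least 20 UMIs in mesothelial cells. They were tested on simulated data with known changes. DESeq2 1.42.0 was an alternative. For cKO against control, summed counts were scaled to CPM, with exact Poisson, conditional binomial and Clopper-Pearson intervals at 95%, which cover counting error only. Log2 ratios carry a pseudocount of 0.5 UMI, and 2-fold was the limit. A count of 0 was taken to allow up to 3 counts. Computation used Python 3.11.15, NumPy 2.4.6 and SciPy 1.17.1.

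Named genes were the 15 highest and 6 lowest against all other cells, among those called the same way in both class tests. At least 10 UMIs were needed in the mesothelial cells of each library, or 100 in the comparator for lower genes. For genotype they were 12 rises and 12 falls, ranked by the interval limit nearer to 1. These needed at least 30 UMIs, UMIs in at least 10 cells, no more than 50% in 1 cell and a CPM not under the cell-free one, all in the higher library. Mitochondrial, ribosomal, haemoglobin, immunoglobulin and unnamed genes and the genes of the rule were left out. Any list gene with 30 UMIs could be named too, and class-test values are also given for list genes with at least 20 UMIs. A list symbol with 2 rows in the files (Ccl21a) was left out of gene tables. Alternatives that left out members above 50000 UMIs, or with at least 5 UMIs of another class, were chosen after the data were seen, as was the ratio of Krt8 without its top cell.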

Additional observations from a re-analysis of the deposited data

How the results depend on the processing

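Against all other cells, 807 genes were higher and 566 lower; without a library term the counts were 508 and 195, and with no filter on low counts 1329 and 2582 of 24436 genes. Against stromal fibroblasts the count of lower genes was 1508, and 787 with DESeq2, 976 without scaling factors and 2832 with no filter; without factors the higher calls were 2052, which moves the split given above. The 21 leading genes kept direction and call in 326 of 328 values. Dpt and Chst4 each missed the threshold once. Most settings gave 42 values. Removing doublets left 40, leaving out cells above 50000 UMIs 40, and leaving out cells with 5 UMIs of another class 38. The missing values neither keep nor lose a call. For genotype, 329 higher and 217 lower genes became 813 and 411 with each cell weighted equally, 26 and 12 of 697 after thinning, and 93 and 46 of 4426 with at least 100 UMIs; without an Epcam UMI they were 429 and 121 of 3629, without cells above 50000 UMIs 408 and 167 of 7088, and without cells holding 5 UMIs of another class 306 and 145 of 7587. Genes that turned direction were Slpi (-0.37), Ccl7 (1.87), Ccl2 (2.21) and Ccn2 (0.61) without an Epcam UMI, S100a4 (-0.74) and Galnt15 (0.58) after thinning, and Sdf2l1 (-0.044) with cells weighted equally. The median of the epithelial junction list turned to 0.41 without an Epcam UMI, 0.22 without cells holding 5 UMIs of another class and 0.13 with at least 100 UMIs; the cause was not tested. The share ratio lay between -0.19 and 0.22 over its alternatives, inside its main interval.

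The class comparisons pair the classes within each library, and the counts against all other cells without that term are given above. For genotype, no paired analysis was possible because each group is 1 library. Leaving out a library leaves no residual degrees of freedom, so values are given per library instead. With 54 and 79 cells, a 2-fold difference is not resolved for genes with few UMIs, and many ratios rest on 1 or a few deep cells.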
